A study of Rattus norvegicus with 12 samples.

Results

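The genes described here are 48 genes that copy DNA, feed or prepare the replication fork, or switch cells into S phase, and they were taken as a fixed list of names with histone genes left out. Their probes were found by the gene name that the array design gives them, under the current or an older symbol: Cdt1 was listed as Ris2, Pclaf as Ns5atp9, and Gins2, Gins3, Cdc45l and Chaf1a under provisional names. Of the 48 genes, 47 had at least 1 of 63 probes, and no probe was matched to Gins1. The single probe of Cdc7 was too dim to test, which left 46 of the 17791 genes tested on the array.

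The cells were F11, a line that divides in culture and came from the fusion of mouse neuroblastoma cells with sensory neurons of rat dorsal root ganglia. After 3 h in medium with 0.5% serum they received 10 µM forskolin, which switches on adenylyl cyclases and so raises cyclic AMP, for 2, 4, 24 or 48 h, with 3 samples at each time. The common reference, F11 RNA taken at the end of the 3 h in low serum with no forskolin, was hybridised on each of the 12 dual-colour rat arrays. Forskolin RNA always carried green Cy3 and the reference red Cy5. The labels do not say that the 3 samples of a time came from separate cultures, so the tests measure the spread of these samples and no more, and it may be technical. No unstimulated cells were collected at the later times, so that forskolin cannot be told apart from time in low serum and in culture. Position on the slide ran with time on all 3 slides and cannot be told apart from it either. Any dye effect of a single gene therefore enters its ratio to the reference and drops out only between times. The share of mouse transcripts in the rat probes' signal was not tested.

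Replication begins before S phase, when ORC1 with the rest of the origin recognition complex, CDC6 and CDT1 load the MCM2 to MCM7 helicase onto DNA, and geminin (Gmnn) blocks loading once S phase has started. CDC45 and the GINS complex then turn the helicase on, polymerase alpha with primase lays down primers, polymerases delta and epsilon extend them, and PCNA, a ring placed by replication factor C, holds the polymerases on DNA. Many of these genes are transcribed at the G1/S boundary by E2F factors, which the retinoblastoma protein family holds back in resting cells. In sensory neurons, which have left the cell cycle, replication genes are largely silent, whereas F11 cells divide in culture.

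The promoters of these genes are shown first, because the genes moved together and E2F sites are the element they are best known to share. RefSeq windows of 300 bases in the rat build GRCr8, which run from 250 bases before to 50 after each gene's start, were available for 40 of the 48 genes, with 43 windows in all. None was listed for Orc1l, Mcm4, Cdc6, Rpa3, Rrm2, E2f1, E2f8 or Ccne2. An E2F motif (TTTGGCGC, TTTCCCGC, TTTCGCGC or TTTGCCGC, either strand) stood in 19 of the 43 windows (44.2%), against 716 of all 33469 windows (2.14%). The 19 windows held 29 matches, some of them overlapping on opposite strands, and 20 of the 29 began within 50 bases before the start or after it. The CCAAT box, bound by NF-Y, was found in 26 of the 43 windows (60.5%), against 37.5% of all windows. The cyclic AMP response element TGACGTCA was found in 1 window, that of Mcm5 (2.33%, against 1.83% of all windows), and its shorter core TGACG, which also lies inside the full element, in 16 windows (37.2%, against 21.2%). The CHR element TTTGAA, known from promoters of mitotic genes, was in 6 windows (14.0%, against 18.3%). These are matches of letters, not shown binding sites.

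The windows of Mcm5 and Mcm3 are printed whole, as the 1 member with both elements and the licensing gene with the largest change at 24 h, and 8 further members by the stretch around the E2F match nearest the start; capitals mark E2F matches. The Mcm5 window carries the TGACGTCA element from base -159 to -152, counted from the gene's start.
Mcm5 (chr19:13488563-13488862, plus strand): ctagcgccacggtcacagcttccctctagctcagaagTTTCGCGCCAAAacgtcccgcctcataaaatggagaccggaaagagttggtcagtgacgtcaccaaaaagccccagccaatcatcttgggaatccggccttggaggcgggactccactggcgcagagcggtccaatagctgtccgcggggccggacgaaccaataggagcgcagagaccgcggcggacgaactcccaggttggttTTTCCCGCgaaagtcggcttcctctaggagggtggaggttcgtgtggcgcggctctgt
Mcm3 (chr9:30733697-30733996, minus strand): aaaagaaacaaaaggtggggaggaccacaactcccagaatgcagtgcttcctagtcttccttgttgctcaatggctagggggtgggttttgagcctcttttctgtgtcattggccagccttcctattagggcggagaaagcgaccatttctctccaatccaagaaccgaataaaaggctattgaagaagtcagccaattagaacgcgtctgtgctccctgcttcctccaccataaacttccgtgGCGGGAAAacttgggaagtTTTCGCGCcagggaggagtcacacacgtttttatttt
Mcm2 (chr4:122918085-122918120, minus strand): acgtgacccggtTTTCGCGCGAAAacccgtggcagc
Mcm6 (chr13:42404468-42404503, minus strand): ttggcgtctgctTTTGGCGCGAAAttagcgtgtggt
Mcm7 (chr12:22163211-22163242, minus strand): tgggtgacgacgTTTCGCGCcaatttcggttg
Cdt1 (chr19:67529244-67529275, plus strand): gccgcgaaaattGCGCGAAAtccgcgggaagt
Gmnn (chr17:40729860-40729883, plus strand): ggttcgggtcgtTTTGGCGCggtt
Pole2 (chr6:93435333-93435364, minus strand): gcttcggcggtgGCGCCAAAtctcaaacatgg
Rfc3 (chr12:5836553-5836584, plus strand): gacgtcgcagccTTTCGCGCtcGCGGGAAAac
Tyms (chr9:120776101-120776132, minus strand): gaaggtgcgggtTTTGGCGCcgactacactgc
In Mcm2 and Mcm6 the matches on the opposite strands overlap, so that the capitals run on as 1 palindrome-like block.

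After 24 and 48 h of forskolin nearly all replication genes were lower than in the reference. Changes are log2 ratios of forskolin over the reference after background correction and loess normalization, whereas the authors' deposited log2 values run the other way. At 24 h, 41 of the 46 measured members were called lower than the reference and 0 higher, with a median log2 change of -0.66 (limma, Benjamini-Hochberg adjusted p under 0.05 over all genes tested). At 48 h, 44 were called lower and 0 higher, with a median of -1.02, and the 41 genes lower at 24 h were all among them. Of all tested genes, 29.2% were called lower and 24.1% higher at 24 h, and 30.3% lower and 26.9% higher at 48 h, with medians of -0.02 at both times. A fall of at least 2-fold was called for 9 members at 24 h and 24 members at 48 h, against 122 (0.686%) and 232 (1.30%) of all tested genes. Fewer cells in S phase and less of each RNA per cell cannot be told apart in RNA pooled from a culture.

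The early times looked different. At 2 h, 11 members were called lower and 8 higher, with a median of -0.02, against 18.3% of all genes lower and 10% higher. At 4 h, 20 were called lower and 9 higher, with a median of -0.11, against 30.1% lower and 19.5% higher. Between 4 and 2 h, 9 members were lower at 4 h and 1 was higher, where 10.1% and 5.55% of all genes were called. Between 24 and 4 h, 39 members were lower at 24 h and 1 was higher, with a median step of -0.49, where 17.8% and 21% of all genes were called lower and higher. Between 48 and 24 h, 26 more were lower at 48 h and 0 higher, with a median step of -0.24, against 6.8% and 8% of all genes. The 4 changes share 1 reference, and successive steps share a time, so these counts are not independent of each other.

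**Figure D1:**
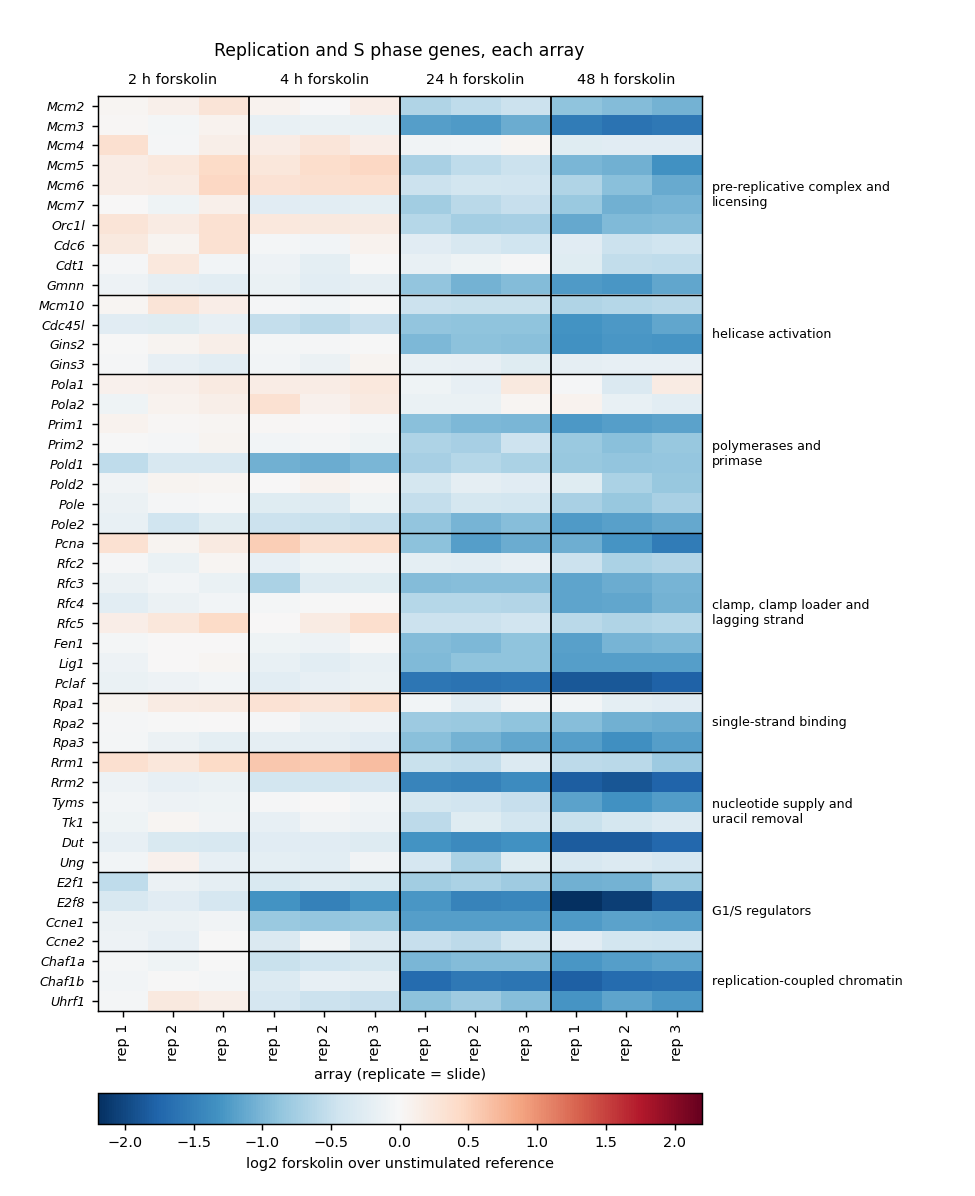
Log2 ratio of forskolin over the unstimulated reference (colour, blue lower, red higher) for the 46 measured members (rows, grouped by role) on each of the 12 arrays (columns, ordered by time). The 24 and 48 h columns are blue in nearly every row, and the few red cells lie mostly at 2 and 4 h.

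The 12 arrays gave the same picture one by one. The median over the 46 members was -0.72, -0.70 and -0.67 on the 24 h arrays and -1.03, -1.05 and -1.04 on the 48 h arrays, and it was between -0.13 and -0.08 on the 4 h arrays and between -0.04 and 0.01 on the 2 h arrays. Over all tested genes the array medians lay between -0.04 and -0.01. At 48 h, 44 members were below 0 on all 3 arrays, and in 41 members every 24 h array lay below every 4 h array. Each slide held 1 array of each time, and within the 3 slides 44, 43 and 45 of the 46 members were lower at 24 h than at 4 h, with median steps of -0.50, -0.52 and -0.50. Within the slides 40, 42 and 43 members were lower at 48 h than at 24 h. For these counts of members the share over all tested genes is not given here, so they do not show how unusual the members were. The standard deviation over the 3 arrays of a time had a median of 0.05 to 0.08 over the members, and the standard error of a fitted mean lay between 0.03 and 0.08.

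By their brightest probes, all 10 licensing genes were lower by 48 h, and 3 of them, Mcm3, Mcm7 and Gmnn, already at 4 h. Mcm3, a subunit of the helicase ring, was at -1.22, -1.25 and -1.10 at 24 h and at -1.54, -1.62 and -1.57 at 48 h. Its 48 h mean is a 2.98-fold lower level than in the reference (adjusted p 2.3e-12), and every 48 h array lay below every 24 h array. At 2 h Mcm3 averaged 0.02 ± 0.06 (SD, n = 3), or -0.53 without the loess step of the normalization. In that setting, used below as well, the 4707 tested genes at least as bright as the median member had medians of -0.61 at 2 h and -0.63 at 4 h. At 4 h Mcm3 was called lower, at -0.15 (adjusted p from limma 0.0062). A second, dimmer Mcm3 probe was called higher at 2 and 4 h, at 0.24 and 0.15. Gmnn, the inhibitor of relicensing, was at -0.87, -1.03 and -0.96 at 24 h and -1.24, -1.28 and -1.15 at 48 h. It was already called lower at 2 h, at -0.18 ± 0.06 (SD, n = 3, adjusted p from limma 0.0072).

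Mcm2 was at 0.04, 0.11 and 0.28 at 2 h, -0.66, -0.57 and -0.47 at 24 h, and -0.88, -0.96 and -1.05 at 48 h. The 2 h values were not called, though with slide as a replicate block they were (adjusted p 0.044), and without loess their mean was -0.30, whereas both late times were below the reference on every array. These values come from the brightest Mcm2 probe. A second, dimmer Mcm2 probe was called higher at 2 and 4 h, at 0.33 and 0.38. At 24 and 48 h that probe was at -0.18 and -0.60. Mcm5 was at 0.17, 0.23 and 0.43 at 2 h and at 0.25, 0.39 and 0.45 at 4 h. By 24 h Mcm5 stood at -0.71, -0.55 and -0.48, and by 48 h at -1.00, -1.06 and -1.33. All 6 early values were above 0 and all 6 late values below it, and the step between 4 and 24 h was -0.94 (adjusted p 3.2e-06). Mcm6 and Orc1l, the largest subunit of the origin recognition complex, had the same order, with means of 0.35 and 0.21 at 4 h and -0.90 and -1.01 at 48 h. Without loess, Mcm5 and Orc1l were below 0 at 2 h (-0.09 and -0.10) and at 4 h (-0.03 and -0.17), and Mcm6 was at -0.06 at 2 h and 0.01 at 4 h. Cdc6, which loads the ring together with CDT1, was called higher at 2 h, at 0.20, and lower at 24 h, at -0.34.

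Mcm4 and Cdt1 were the licensing genes not called at 24 h. Mcm4 averaged -0.03 at 24 h (SE 0.06, adjusted p 0.73) and -0.25 at 48 h (adjusted p 0.0021), from a dim probe that was well above background in the forskolin channel on 2 of the 3 arrays at 48 h. Without loess its values were 0.26 and 0.06. Cdt1 was at -0.16, -0.10 and -0.02 at 24 h and at -0.27, -0.54 and -0.55 at 48 h, and only the second of these was called (adjusted p 0.24 and 3.7e-05). Mcm7 was lower from 4 h on, with means of -0.24, -0.63 and -0.97 at 4, 24 and 48 h. In all, 8 of the 10 licensing genes were called lower at 24 h and 10 of 10 at 48 h.

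Of the 4 measured genes that activate the helicase, all were called lower at both late times. Cdc45l, which joins the MCM ring to form the active helicase, was at -0.26, -0.27 and -0.18 at 2 h, -0.53, -0.59 and -0.51 at 4 h, -0.87, -0.88 and -0.88 at 24 h and -1.31, -1.26 and -1.14 at 48 h. Cdc45l was 1 of 4 members, with Rrm2, Chaf1a and Uhrf1, that were called lower at each of the 3 steps, and it fell by 0.31, 0.33 and 0.36 on the log2 scale (adjusted p 0.0023, 0.00041 and 0.00081). Gins2, a subunit of the GINS complex, was not called at the early times, at -0.01, 0.07 and 0.14 at 2 h and -0.04, -0.03 and -0.01 at 4 h, but was called lower without loess, at -0.49 and -0.57. It then reached -0.99, -0.90 and -0.91 at 24 h and -1.32, -1.28 and -1.30 at 48 h, and these groups do not overlap. Mcm10, which helps the ring to open, was higher at 2 h, at 0.15, and lower at 24 and 48 h, at -0.48 and -0.63. Gins3 was not well above background in the forskolin channel on any array of 24 or 48 h. Its measured levels there, 1.15-fold lower at 24 h and 1.14-fold lower at 48 h, are thus uncertain. For such genes a bound sets the reference mean against the forskolin channel's detection limit or its own signal, whichever is higher, and is open to dye bias. For Gins3 its own signal was the higher, so that the bound was the measured change itself.

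**Figure D2:**
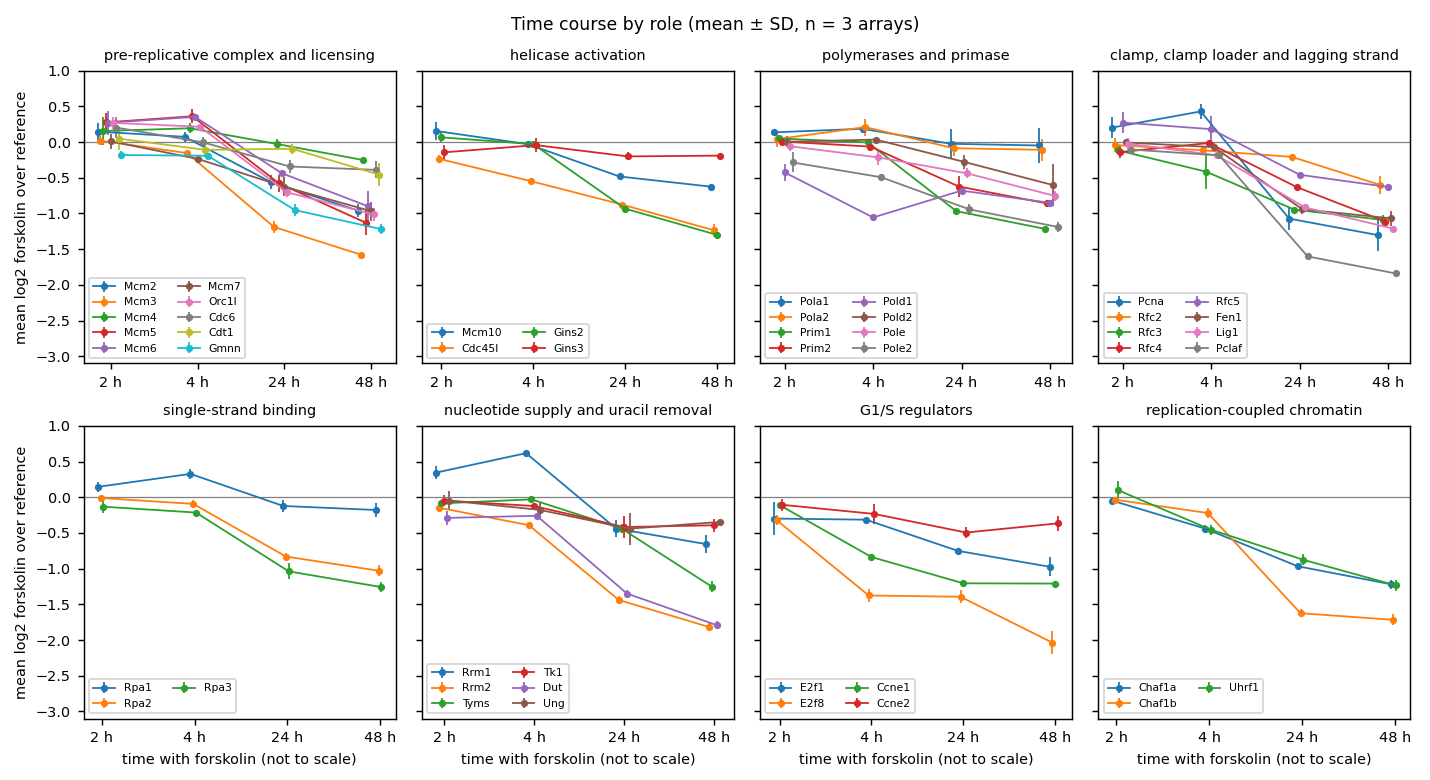
Mean log2 ratio of forskolin over reference at the 4 times for each of the 46 measured members, in 8 panels by role, with the SD over 3 arrays as error bars; times are evenly spaced and not to scale. Most lines stay near 0 at 2 and 4 h and drop by 24 h, and those of E2f8, Ccne1 and Pold1 drop by 4 h.

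The polymerase genes had several courses. Prim1, the catalytic subunit of primase, was at 0.09, 0.03 and 0.04 at 2 h and at 0.02, 0.00 and -0.04 at 4 h, and without loess its means were -0.63 and -0.64. It was then at -0.91, -0.99 and -1.00 at 24 h and -1.26, -1.21 and -1.18 at 48 h, a 2.32-fold lower level at 48 h (adjusted p 7.4e-12). Prim2, the large primase subunit, was at -0.62 and -0.86 at the late times. Pola1 and Pola2, the polymerase subunits of the same complex, were the 2 members not called at 24 or at 48 h. Pola1 was at -0.10, -0.19 and 0.21 at 24 h and -0.02, -0.31 and 0.19 at 48 h, scattered on both sides of 0, and Pola2 was at 0.07, -0.17 and -0.23 at 48 h. Both probes were dim, at mean log2 signals of 6.53 and 6.95, and Pola1 was well above background in the forskolin channel on 2 of 3 arrays at each late time. Without loess Pola1 was called higher, at 0.36 and 0.35.

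Pole2, the second subunit of the leading-strand polymerase epsilon, was at -0.16, -0.44 and -0.27 at 2 h, -0.47, -0.50 and -0.52 at 4 h, -0.88, -1.02 and -0.93 at 24 h and -1.25, -1.20 and -1.12 at 48 h. The catalytic subunit gene Pole followed, with means of -0.22, -0.44 and -0.76 at 4, 24 and 48 h. Pold1, the catalytic subunit of the lagging-strand polymerase delta, was lowest at 4 h. It was at -0.57, -0.36 and -0.36 at 2 h and at -1.06, -1.09 and -1.01 at 4 h. It then stood at -0.73, -0.62 and -0.69 at 24 h and -0.84, -0.86 and -0.85 at 48 h. The 4 h arrays were the lowest of the 12, and Pold1 was the 1 member called higher at 24 h than at 4 h, by 0.38 (adjusted p 0.00032). Pold2, its partner subunit, was at 0.00 and 0.03 at 2 and 4 h and at -0.28 and -0.60 at 24 and 48 h.

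All 8 genes of the clamp, its loader and lagging-strand processing were lower at both late times. Pcna, the sliding clamp, was at 0.34, 0.06 and 0.21 at 2 h and 0.54, 0.36 and 0.39 at 4 h. It was at -0.91, -1.22 and -1.09 at 24 h and -1.08, -1.30 and -1.53 at 48 h. The step from 4 h was -1.50 (adjusted p 1.5e-07) and took every array from above the reference to below it, whereas the 24 and 48 h values overlapped. Without loess the early means of Pcna were -0.35 and -0.12. Pclaf, a small PCNA-binding protein, was at -0.15, -0.11 and -0.06 at 2 h, -1.58, -1.63 and -1.60 at 24 h and -1.87, -1.87 and -1.79 at 48 h. Its 48 h level was 3.58-fold lower than the reference (adjusted p 6.8e-13).

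Among the clamp loader genes, Rfc3 and Rfc4 reached -1.09 and -1.11 at 48 h, and Rfc2 and Rfc5 -0.60 and -0.63. Rfc5 had been called higher at 2 and 4 h, at 0.27 and 0.18, and Rfc3 lower at 4 h, at -0.41. Fen1, the nuclease that trims Okazaki fragments, was at -0.94 ± 0.06 and -1.07 ± 0.11 at 24 and 48 h, and Lig1, the ligase that seals them, at -0.92 ± 0.05 and -1.21 ± 0.00 (SD, n = 3 each). The 3 subunits of RPA, which coats single-stranded DNA, were not all called lower at 24 h. Rpa3 was at -0.92, -1.05 and -1.15 at 24 h and -1.22, -1.34 and -1.22 at 48 h. Rpa2 was at -0.80, -0.81 and -0.89 at 24 h and -0.94, -1.05 and -1.10 at 48 h. Rpa1, the large DNA-binding subunit, was called higher at 4 h, at 0.31, 0.27 and 0.40. It was not called at 24 h, at -0.06, -0.22 and -0.08 (adjusted p 0.051), though it was with slide as a replicate block (adjusted p 0.044). At 48 h its mean of -0.18 was called with all 3 arrays (adjusted p 0.0068) but not without the second or the third (adjusted p 0.051 and 0.064).

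The nucleotide genes were lower at the late times, and Rrm1 was higher at the early ones. Ribonucleotide reductase makes deoxynucleotides and needs both its large subunit, from Rrm1, and its small, cell cycle-regulated subunit, from Rrm2. Rrm1 was at 0.35, 0.25 and 0.43 at 2 h and at 0.60, 0.58 and 0.67 at 4 h, a 1.53-fold higher level than the reference (adjusted p 6.8e-07). It was then at -0.49, -0.52 and -0.31 at 24 h and -0.58, -0.59 and -0.80 at 48 h. With the mean of its probes in place of the brightest, the 24 h value of Rrm1 was -0.10 and not called (adjusted p 0.063). The brightest Rrm2 probe was below the reference throughout, at -0.12, -0.18 and -0.14 at 2 h, -0.41, -0.40 and -0.36 at 4 h, -1.46, -1.49 and -1.38 at 24 h and -1.81, -1.88 and -1.76 at 48 h. The second Rrm2 probe was not called at 2 h, at 0.03, or at 4 h, at -0.13. At 4 h the brightest probes of the 2 subunit genes thus stood on opposite sides of the reference on all 3 arrays.

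Dut, which destroys dUTP before it can enter DNA, was at -0.18, -0.33 and -0.36 at 2 h, -0.25, -0.26 and -0.28 at 4 h, -1.32, -1.40 and -1.33 at 24 h and -1.82, -1.83 and -1.73 at 48 h. Its level at 48 h was 3.47-fold lower than in the reference (adjusted p 1.3e-12). Tyms, thymidylate synthase, changed late, at -0.38, -0.43 and -0.50 at 24 h and -1.18, -1.34 and -1.23 at 48 h. Its step between those times was -0.81 (adjusted p 9.4e-07). Tk1, thymidine kinase, was at -0.42 and -0.39 at the late times, when its probe was well above background in the forskolin channel on 1 of 3 arrays. Ung, which removes uracil from DNA, was not well above background there at 24 or 48 h and was at least 1.33-fold and at least 1.27-fold lower. Cdc6 was likewise not well above background in that channel at 48 h, at a measured 1.31-fold lower level. Its own signal exceeded the detection limit, so that this is not a lower bound.

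The regulators of S phase entry were all lower by 4 h. E2f8, an atypical repressor E2F that is itself an E2F target, was at -0.35, -0.24 and -0.38 at 2 h and at -1.31, -1.49 and -1.33 at 4 h. At 24 h it was at -1.29, -1.46 and -1.43, which overlaps the 4 h values (step -0.02, adjusted p 0.90), and it reached -2.18, -2.06 and -1.86 at 48 h, a 4.10-fold lower level (adjusted p 5.6e-12). Ccne1, cyclin E1, which activates CDK2 at the G1/S boundary, was at -0.13, -0.12 and -0.08 at 2 h, -0.82, -0.86 and -0.84 at 4 h, -1.20, -1.21 and -1.21 at 24 h and -1.25, -1.18 and -1.20 at 48 h. The 24 and 48 h values of Ccne1 overlap. Ccne2, the second E-type cyclin, averaged -0.23, -0.49 and -0.37 at 4, 24 and 48 h. E2f1, the best known activator of replication genes, was at -0.56, -0.14 and -0.20 at 2 h, -0.34, -0.28 and -0.33 at 4 h, -0.77, -0.70 and -0.79 at 24 h and -1.06, -1.04 and -0.82 at 48 h. By their brightest probes all 4 regulators were called lower at 4 h, with a median of -0.58. The second probes of E2f1 and Ccne1 were not called at 4 h, and that of Ccne2 was called higher, at 0.15.

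**Figure D3:**
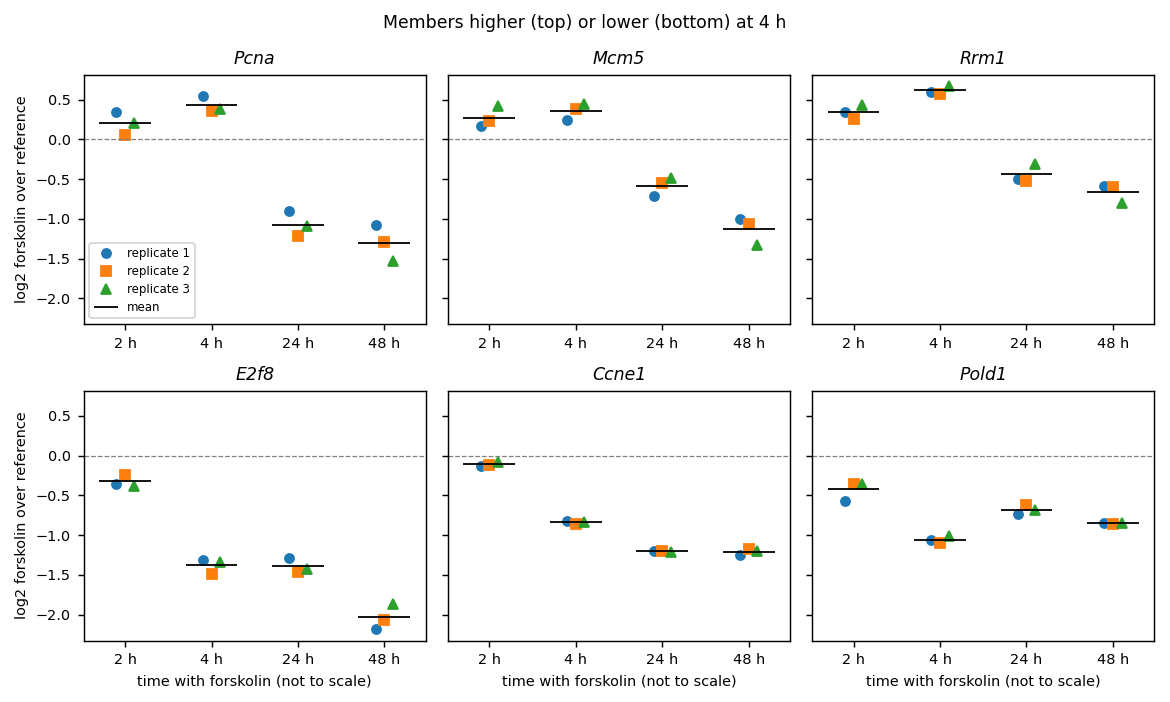
Log2 ratio of forskolin over reference on each array (points, 3 replicates) with the mean (line) for 3 members called higher at 4 h (top row) and 3 called lower (bottom row). Pcna, Mcm5 and Rrm1 lie above 0 at 2 and 4 h and below it later. Without loess the early means of Pcna and Mcm5 are below 0 but above the median of bright genes. E2f8, Ccne1 and Pold1 are below 0 throughout, with the 4 h points of Pold1 under its later ones.

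By their brightest probes, the genes that rebuild chromatin behind the fork were also lower by 4 h, in 3 of 3, against 30.1% of all tested genes. Chaf1a and Chaf1b encode the larger subunits of chromatin assembly factor 1, which puts histones onto new DNA. Chaf1b was at -0.30, -0.18 and -0.19 at 4 h, -1.68, -1.58 and -1.61 at 24 h and -1.80, -1.70 and -1.65 at 48 h, a 3.08-fold lower level at 24 h (adjusted p 4.6e-12). Chaf1a was at -0.49, -0.44 and -0.39 at 4 h, -1.00, -0.95 and -0.95 at 24 h and -1.28, -1.22 and -1.15 at 48 h. A second, dimmer Chaf1a probe was called higher at 2 and 4 h, at 0.21 and 0.15, and lower at 24 and 48 h, at -0.37 and -0.62. Uhrf1, which guides maintenance DNA methylation to newly copied DNA, was at -0.05, 0.21 and 0.13 at 2 h and -0.38, -0.47 and -0.51 at 4 h. Its step between these times, -0.55, was called (adjusted p 0.00018), and Uhrf1 reached -1.24 ± 0.07 at 48 h (SD, n = 3).

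At 2 or 4 h, 22 members were called lower, 11 were called higher and 13 had no call. At 2 h, 23.9% of the members were lower and 17.4% higher, against 18.3% and 10% of all tested genes. At 4 h, 43.5% of the members were lower and 19.6% higher, against 30.1% and 19.5%. The share of members called higher at 4 h was thus close to that of all genes. Mcm5, Mcm6, Orc1l, Rfc5, Rpa1 and Rrm1 were called higher at both 2 and 4 h, and Mcm4, Pola2 and Pcna at 4 h. Of these 9 genes, 6 were called lower at 24 h and 8 at 48 h. Gmnn, Cdc45l, Pold1, Pole2, Rrm2, Dut, E2f1, E2f8 and Ccne1 were called lower at both 2 and 4 h, and Mcm3, Mcm7, Pole, Rfc3, Lig1, Pclaf, Rpa3, Ccne2, Chaf1a, Chaf1b and Uhrf1 at 4 h. These calls come from each gene's brightest probe. The second probes of Rrm2, Dut, E2f1, E2f8 and Ccne1 were not called at 2 h. At 4 h that of E2f8 was called lower, at -0.23. Those of Rrm2, Dut, E2f1 and Ccne1 were not called at 4 h, at -0.13, 0.07, -0.12 and -0.01. No member was called higher at 2 h and lower at 4 h.

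Some of these early directions rest on the loess step, which removes the trend of the ratio with brightness. When arrays were only centred on the median of the tested genes, 31 members were called lower and 8 higher at 2 h, and 31 lower and 9 higher at 4 h, where Rfc5 was at -0.05. In that setting other bright genes were low too. The 4707 tested genes at least as bright as the median member had medians of -0.61 at 2 h and -0.63 at 4 h. For 12 housekeeping genes the median was -0.58 at both times. A member below 0 in that setting can thus lie above the median of the bright genes. The members' late medians there, -1.07 at 24 h and -1.40 at 48 h, were lower than those of the bright genes, -0.63 and -0.67. The 2 h counts also depended on single arrays: without the third 2 h sample, 7 members were lower and 2 higher. Without the second 2 h sample, 7 were lower too.

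How bright a probe was went with how much it changed. Over the 46 members, mean log2 signal and change at 24 h had a Pearson correlation of -0.64 and a Spearman correlation of -0.69, where all points share the same 12 arrays. The 23 brighter members had a median change of -0.95 at 24 h and -1.24 at 48 h, and the 23 dimmer ones -0.44 and -0.63. In 12 of the 15 members with several kept probes, the brightest probe, which stands for the gene here, gave the lowest value at 24 h. The second probe of E2f8, for example, averaged -0.27 at 24 h where the first gave -1.39, that of Ccne1 -0.13 against -1.21, and the third of Rrm1 0.12 against -0.44. At 4 h the probes of 3 members were called in opposite directions: Mcm3 at -0.15 and 0.15, Ccne2 at -0.23 and 0.15, and Chaf1a at -0.44 and 0.15. At 24 and 48 h no member had probes called in opposite directions, and in 13 of the 15 all kept probes were below 0. What differs between such probes besides brightness was not tested. All these values used the offset of 50 in the background correction. With an offset of 0, the median over the 46 members was -0.89 at 24 h and -1.18 at 48 h, against -0.66 and -1.02 here. The size of the changes thus depended on the offset. How much of the link between brightness and change came from the offset was not tested. Dimmer probes are therefore not shown to have truly smaller falls.

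**Figure D4:**
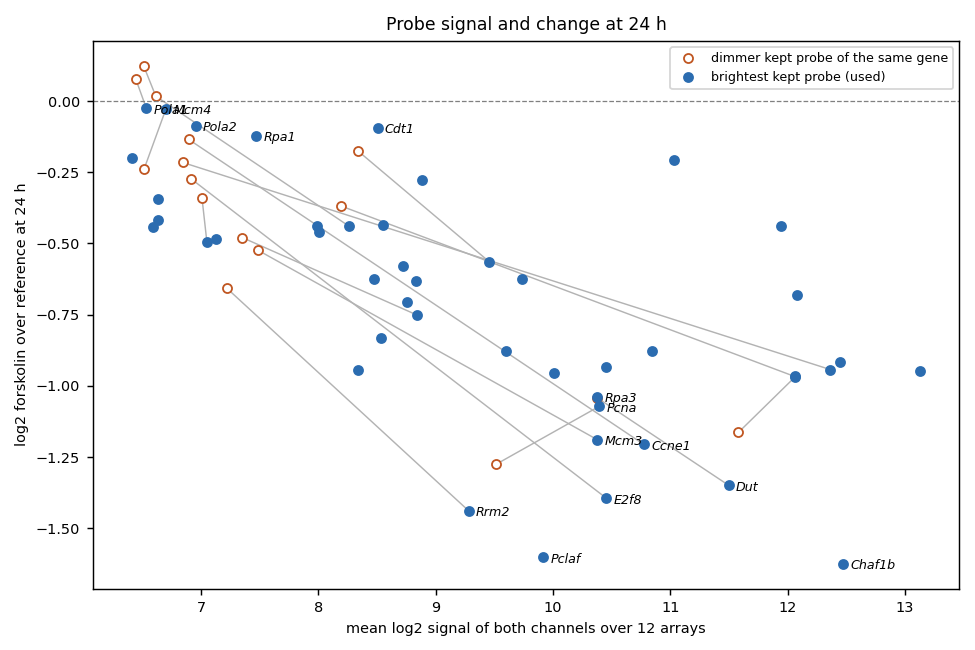
Mean log2 signal over both channels and 12 arrays (horizontal) against the log2 ratio of forskolin over reference at 24 h (vertical) for the brightest kept probe of each of the 46 members (filled) and for dimmer kept probes of the same genes (open, joined by grey lines). Changes reach below -1 only for probes with signals above 9, and most grey lines run upward to the left.

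The probes of Mcm3, Pcna and Rrm2 are printed, since the values given for these genes come from them and the origin of the Rrm2 signal is uncertain. A second, dimmer probe of each gene was called lower at 24 h too, at -0.52 for Mcm3, -1.28 for Pcna and -0.66 for Rrm2. All are 60 bases of the array's design, with positions in build rn3 from the files, for which no annotation of exons was used here.
Mcm3 probe (chr9:19535990-19536049, minus strand): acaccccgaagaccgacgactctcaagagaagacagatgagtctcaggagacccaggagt
Pcna probe (chr3:119916790-119916994, minus strand): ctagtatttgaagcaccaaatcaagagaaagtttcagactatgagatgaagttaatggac
Rrm2 probe (chr19:25568876-25568935, minus strand): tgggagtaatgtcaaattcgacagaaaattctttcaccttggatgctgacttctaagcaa
The Pcna probe spans 205 bases of the genome and so crosses a gap in the alignment. The files place the Rrm2 probe on chromosome 19, whereas RefSeq has the gene on chromosome 6 of GRCr8, and they place the Tk1 probe on chromosome 3 against 10. Of the 46 probes used, 41 were on the gene's RefSeq chromosome and 3 on unplaced or random sequence, so that for Rrm2 and Tk1 the signal of a related copy cannot be told apart from that of the gene.

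The medians of members with and without an E2F match in their window lay close together at the late times. The 18 measured members with a match had a median of -0.60 at 24 h and -1.06 at 48 h, and the 20 without had -0.66 and -0.96. At 4 h the medians were -0.17 and -0.05. These values are a description without a test, and a match can lie outside the window.

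Other genes of the same pathways, from lists drawn up by function, were mostly lower as well. Of all tested genes, 29.2% were called lower and 24.1% higher at 24 h, and 30.3% and 26.9% at 48 h. Of 25 further replisome and origin genes, 19 were called lower and 1 higher at 24 h, with a median of -0.38, and 21 and 1 at 48 h, with a median of -0.68. Among them Dscc1, of an alternative clamp loader, was at -1.49 at 24 h, Gins4 at -1.07 and Pold3 at -0.86. Of 21 other nucleotide synthesis genes, 11 were lower and 1 higher at 24 h and 16 and 1 at 48 h, with Dctpp1 at -0.86 and Shmt1 at -0.79 at 24 h. Of 16 genes of the S phase checkpoint and fork repair, 11 were lower and 1 higher at 24 h, with the BRCA1 partner Bard1 at -1.29, the nuclease Exo1 at -1.21 and the CDK-inhibiting kinase Wee1 at -0.94. Of 8 other chromatin genes of replication, 6 were lower and 1 higher at 24 h, with Cbx5 at -0.58, Supt16h at -0.53 and Asf1b at -0.40.

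The factors that act on E2F sites were also measured. Of 11 measured genes for E2F factors, their DP partners, pocket proteins and the MuvB complex, 5 were called lower and 1 higher at 24 h, with a median of -0.10. These are 45.5% and 9.09%, against 29.2% and 24.1% of all tested genes. At 48 h, 4 were lower and 2 higher (36.4% and 18.2%, against 30.3% and 26.9%), with a median of -0.08. At 24 h Tfdp2 was at -0.63, Tfdp1 at -0.27 and Rb1 at -0.23, and Lin37, the 1 gene called higher, at 0.19. Of 29 mitosis genes, 28 were called lower and 0 higher at both late times, with medians of -0.61 and -1.27, and 19 were lower and 3 higher at 4 h. Of all tested genes, 30.1% were called lower and 19.5% higher at 4 h. Espl1, the separase that releases sister chromatids, was at -1.36 at 24 h, Ccna2, the cyclin of S phase and early mitosis, at -1.32, and Cks2 at -1.28.

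**Figure D5:**
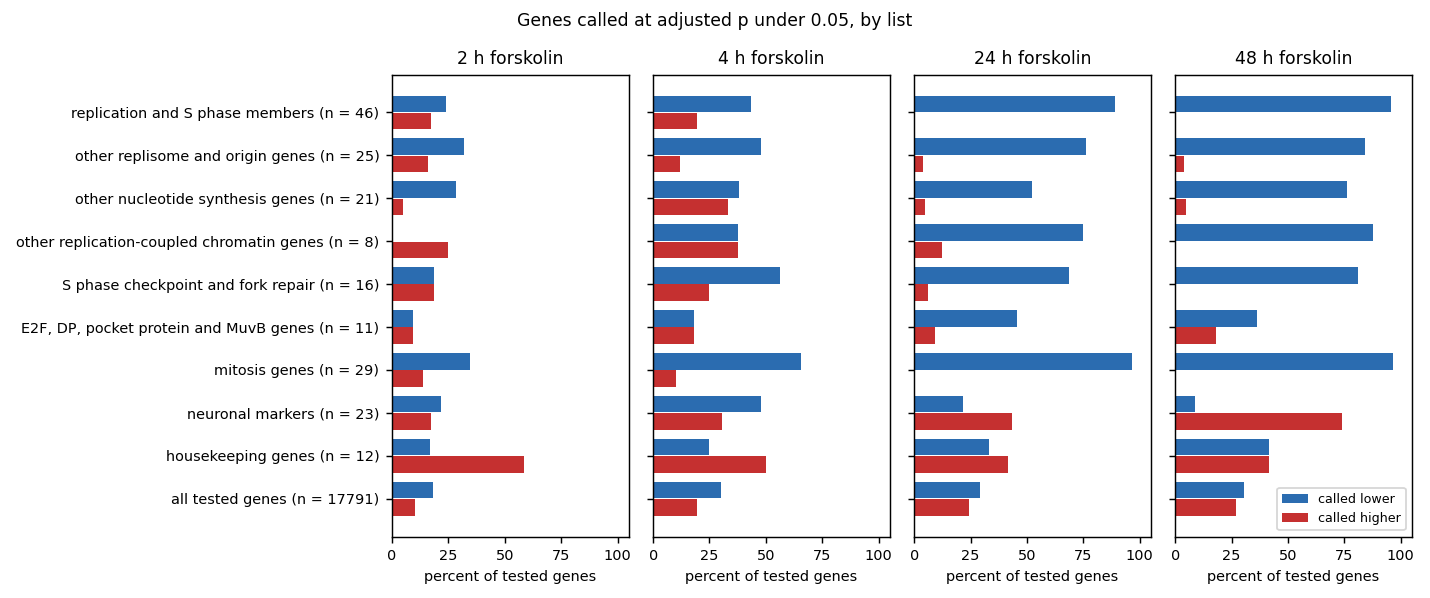
Percent of tested genes called lower (blue) and higher (red) than the reference at each of the 4 times, for the replication and S phase members, 8 other lists and all tested genes (bottom row). At 24 and 48 h the members and the mitosis genes have long blue bars and no red bar, and the neuronal markers have longer red bars than blue.

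Most neuronal markers stood above the reference at 48 h. Of 23 measured neuronal markers, 10 were called higher and 5 lower at 24 h, with a median of 0.12, and 17 and 2 at 48 h, with a median of 0.52. Of all tested genes, 24.1% were called higher and 29.2% lower at 24 h, and 26.9% and 30.3% at 48 h. Scg2, Tac1 and Prph were at 1.13, 0.81 and 0.56 at 24 h. Scg2 and Tac1 had stood higher at 4 h, at 1.39 and 3.27, and Tac1 was at 0.52 at 48 h. The markers called lower at 24 h were Isl1, Nefm, Stmn2, Gap43 and Calca, at -0.52, -0.43, -0.33, -0.23 and -0.18. Summed over the list, background-subtracted forskolin intensity was 90132 to 98030 on the 2 h arrays, 88380 to 93244 at 4 h, 115459 to 124601 at 24 h and 165065 to 176012 at 48 h. The other channel, the reference, gave 261002 to 479391. These sums were not normalized between channels: 12 housekeeping genes gave 121336 to 143510 for forskolin and 487522 to 745385 for the reference. Of 24 neuronal markers, 21 exceeded background clearly in the forskolin channel on all 12 arrays. Glial and fibroblast markers were weak: 2 of 12 glial and 4 of 10 fibroblast markers reached that level, and S100b, Gfap, Erbb3, Cdh19, Col3a1, Dcn, Lum, Postn and Col6a1 were above background on no array in that channel. The part of the neuronal change in the fall of the replication genes was not tested.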

How the data were processed

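Total RNA of 12 forskolin samples was compared with 1 common reference on 2-colour Agilent rat arrays. Per the file headers, the authors quantified the scans with Agilent Feature Extraction 9.5.1.1, and each deposited file holds every spot's mean intensity, its local background intensity and a processed signal in both channels. The authors also deposited log2 values, for which the submitters' notes name limma; how they were normalized is not given in the sources. Compared with the scanner files, these log2 values ran as reference over forskolin (correlations of -0.998 to -0.995), opposite to the direction used here, with column medians of 0.007 to 0.012. They were matched by spot row, and 170 of 43379 spots were absent from them.

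Intensities were corrected with normexp (offset 50) and normalized within arrays by loess in limma 3.58.1 under R 4.3.3, with control spots at weight 0 and outlier-flagged spots left out. The median spot intensity was between 64.6 and 71.5 for forskolin (background 47 to 52) and between 112.7 and 127.9 for the reference (background 83 to 88), and the number of arrays limits the precision. Of 41012 probes, 20631 were kept, which had either channel well above background on every array of some time point, and the brightest kept probe stood for a gene. All 17791 genes were fitted with 1 mean per time (8 residual degrees of freedom), tested with eBayes and adjusted by Benjamini-Hochberg. Calls are at an adjusted p under 0.05, and every adjusted p in the text comes from this limma fit. The fit was tested on simulated data.

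The members, lists and tests were chosen with earlier results of these data known. Values on single arrays, though not at every time, are given for the 2 members of each role with the largest change at 24 h, and for Pcna, Mcm2, Rrm2, E2f1 and Gmnn. Most other members are given as means at some times, by bounds or in counts. Values of Mcm4, Mcm5, Mcm6, Orc1l, Cdt1, Pola1, Pola2, Pold1, Rfc5, Rpa1, Rrm1, Tyms and Uhrf1, on every array or as means, were added after their values were seen. Of each other list, up to 3 called genes with the largest change at 24 h are named. Among the neuronal markers and the E2F-related genes, those called the other way at 24 h are named too. A gene that this rule would name is not reported here. Samples with the same replicate number share a slide. Over 18 same-number pairs, deviations from the group means correlated at 0.05 to 0.47, and over 36 other pairs at -0.40 to 0.30, so not every same-number pair was over 0.1. The fit has no block, and a fit with slide as a block was an alternative. Other alternatives were the background correction, loess, the filter, the probe rule, the deposited values and leaving out each array.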

Additional observations from a re-analysis of the deposited data

Results flagged for a closer look

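By their brightest probes, Pcna, Rrm1, Mcm5, Orc1l, Mcm6 and Rfc5 were called on opposite sides of the reference at 4 and 24 h. The difference between these times was called as well (limma, adjusted p under 0.05). At 4 h the share of members called higher, 19.6%, was close to that of all tested genes, 19.5%. The share of all tested genes that crossed in this way is not given here. On the log2 scale the change at 24 h minus that at 4 h was -1.50 for Pcna, -1.06 for Rrm1, -0.94 for Mcm5, -0.92 for Orc1l, -0.79 for Mcm6 and -0.64 for Rfc5. Without loess, 4 of the 6 were below 0 at 4 h, Pcna at -0.12, Mcm5 at -0.03, Orc1l at -0.17 and Rfc5 at -0.05. Mcm6, at 0.01, was not called. In that setting the 4707 tested genes at least as bright as the median member had a 4 h median of -0.63, below all of these values. The second Pcna probe was not called at 4 h (0.12, adjusted p 0.13). Counted over all 46 measured members, the change against the reference differed between 4 and 2 h in 10 members, between 24 and 4 h in 40 and between 48 and 24 h in 26. Of the 17790 genes tested in each step, 2784, 6897 and 2633 were called in these steps. With 3 samples a group, single arrays were not tested as outliers.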

How the results depend on the processing

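The late falls held under every alternative run: 38 to 42 members were called lower at 24 h and 39 to 45 at 48 h, of 40 members under the stricter filter and 46 or 47 otherwise. Slide as a replicate block gave 13, 22, 42 and 44 members lower and 10, 10, 0 and 0 higher at 2, 4, 24 and 48 h; among single named members it added calls against the reference for Mcm2, Pcna, Pclaf and Rpa3 at 2 h, Pola1 at 4 h and Rpa1 at 24 h, and for steps between times in Mcm3, Pole2 and Pcna, and no other call count moved by over 1.5 times except the single gene higher at 4 than at 2 h, which became 2. Centring each array on its spots in place of loess moved the median of all tested genes to -0.58, -0.58, -0.45 and -0.45; centring on the tested genes gave 31, 31, 39 and 39 members lower and 8, 9, 3 and 2 higher, 5 lower and 0 higher between 4 and 2 h, and member medians of -0.43, -0.50, -1.07 and -1.40. With that centring, Mcm2, Mcm3, Gins2, Prim1, Pcna, Mcm5, Cdt1, Uhrf1, Mcm6 and Orc1l turned at 2 h, to -0.30, -0.53, -0.49, -0.63, -0.35, -0.09, -0.23, -0.38, -0.06 and -0.10. At 4 h Mcm2, Pcna, Mcm5, Orc1l and Rfc5 turned, to -0.38, -0.12, -0.03, -0.17 and -0.05. At the late times Mcm4 turned to 0.26 and 0.06, and Pola1 to 0.36 and 0.35. The mean of all probes turned Ccne1 at 2 h to 0.04. Agilent's processed signals gave 4 members higher at 2 h. The 24 and 48 h medians were -0.89 and -1.18 with an offset of 0, -0.95 and -1.26 with processed signals, -0.79 and -1.10 with the strict filter, -0.62 and -0.91 with mean probes, and -0.69 and -1.08 with the deposited values; without background correction the 48 h median was -0.99. The 1 member higher at 4 than at 2 h, Rrm1, became 2 without background correction and 0 with an offset of 0, processed signals or no filter. Leaving out 1 array gave 7 to 12 lower and 2 to 9 higher at 2 h, 20 to 21 and 7 to 10 at 4 h, 40 to 42 at 24 h, 43 to 45 at 48 h, 7 to 10 lower and 0 to 1 higher between 4 and 2 h, and medians of -0.69 to -0.65 at 24 h and -1.04 to -1.02 at 48 h. Leaving out the second or the third 2 h array gave 7 members lower at 2 h. The cause of these shifts was not tested. Of the values of single named members at 24 and 48 h, 1276 were on the same side of the threshold, 15 gained a call, 3 lost it and 4 turned. Dim signal limits Gins3, Ung, Cdc6, Tk1, Mcm4 and Pola1.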

Other observations

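Pold1 and E2f8 were the only members called at least 2-fold lower at 4 h, out of 69 such genes (0.388%) of all those tested. Their later courses differed: the step from 4 to 24 h was 0.38 for Pold1 (adjusted p 0.00032) and -0.02 for E2f8 (adjusted p 0.90). Both were singled out after their values were seen.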
